A study of Homo sapiens with 4 samples.

Results

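The kidney lineage transcription factor genes described here are PAX2, PAX8, HNF4A, HNF4G, LHX1, EMX2, POU3F3 and GATA3. These 8 genes were chosen by name from 20037 protein-coding genes of RefSeq on GRCh38.p14, which has the same chromosome coordinates as hg38. Every FOXK1 peak overlapping a gene body or the 20 kb on either side of it was taken, and that stretch is called the window of the gene. The study located FOXK1, a forkhead transcription factor, by ChIP-seq in HK-2, an established human cell line from the proximal tubule. Treated cells received TGF-β1, a profibrotic cytokine, at 10 ng/ml for 24 h, and control cells were kept without it. Both conditions shared fixation with paraformaldehyde, digestion with micrococcal nuclease and sonication. The 4 libraries were 1 FOXK1 and 1 input library for each condition, and the labels describe no knockout, transgene or clone. The files hold peaks and no expression, so neither the proximal tubule label nor the activity of these 8 genes could be checked.

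Kidney lineage factors act in sequence during nephron formation, largely as worked out in the mouse. PAX2 and PAX8 are paired-box factors that work together to start the nephric lineage, LHX1 is a LIM homeobox factor of the nephric duct and early nephron, and GATA3, a zinc finger factor, acts in the nephric duct and later in the collecting duct. EMX2 is a homeobox factor needed in the ureteric bud, POU3F3 is a POU-domain factor of the loop of Henle and distal tubule, HNF4A is a nuclear receptor that drives proximal tubule maturation, and HNF4G is its close relative.

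The TGF-β1 list held 439136 peaks on assembled chromosomes and the control list 381700. Each peak had a pileup height, the authors' number of stacked fragments, with a minimum of 3 and a median of 5 in both lists. Sequencing depth is unknown and there is 1 library per condition. Heights and peak numbers of both lists therefore stand side by side without being a measure of change, and no p-value was computed. A peak is called strong when it reaches the height of the 10000th highest peak of its own list, which was 15 in the TGF-β1 list and 17 in the control list. Strong peaks made up 2.58% and 2.90% of the TGF-β1 and control lists.

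Promoter sequences are printed for some of these genes. The RefSeq promoter table (GRCh38.p14, 250 bases before to 50 bases after a start) held 13 starts for 6 of the genes. TGF-β1 peaks overlapped 0 of these 13 promoter windows, and control peaks overlapped 2, printed first. The share over all promoters of the table is not given here, so these counts cannot be called high or low. Also shown is the promoter of AATF, a neighbour of LHX1 that encodes an apoptosis-antagonising nuclear protein, because peaks of both lists covered it. The last pair, of POU3F3 and EMX2, is shown because each holds a 7-letter forkhead motif and neither was covered by a peak. Capitals mark matches to GTAAACA (forkhead core), ATAAACA (forkhead variant), TGANTCA (AP-1) or CGGAAG (ETS core) on either strand, and sequences run 5′ to 3′ along the gene.
PAX8, minus strand, chr2:113278872-113279171: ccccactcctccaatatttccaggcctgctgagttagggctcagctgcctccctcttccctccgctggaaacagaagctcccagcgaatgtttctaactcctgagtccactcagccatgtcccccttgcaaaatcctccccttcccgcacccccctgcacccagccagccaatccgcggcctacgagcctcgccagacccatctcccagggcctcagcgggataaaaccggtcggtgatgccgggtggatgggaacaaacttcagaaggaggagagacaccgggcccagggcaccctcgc
PAX2, second listed start, plus strand, chr10:100745332-100745631: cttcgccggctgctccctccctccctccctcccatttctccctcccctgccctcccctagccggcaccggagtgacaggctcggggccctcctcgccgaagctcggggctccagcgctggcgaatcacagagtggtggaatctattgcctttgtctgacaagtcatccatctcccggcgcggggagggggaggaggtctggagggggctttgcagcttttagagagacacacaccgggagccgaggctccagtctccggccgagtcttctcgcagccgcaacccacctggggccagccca
AATF, plus strand, chr17:36948704-36949003: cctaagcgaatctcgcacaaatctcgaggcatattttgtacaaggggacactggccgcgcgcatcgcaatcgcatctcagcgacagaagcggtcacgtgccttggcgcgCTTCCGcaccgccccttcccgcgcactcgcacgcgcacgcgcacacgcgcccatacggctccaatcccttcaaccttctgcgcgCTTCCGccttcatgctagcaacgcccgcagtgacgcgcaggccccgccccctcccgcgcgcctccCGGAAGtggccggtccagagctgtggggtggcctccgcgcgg
POU3F3, plus strand, chr2:104853865-104854164: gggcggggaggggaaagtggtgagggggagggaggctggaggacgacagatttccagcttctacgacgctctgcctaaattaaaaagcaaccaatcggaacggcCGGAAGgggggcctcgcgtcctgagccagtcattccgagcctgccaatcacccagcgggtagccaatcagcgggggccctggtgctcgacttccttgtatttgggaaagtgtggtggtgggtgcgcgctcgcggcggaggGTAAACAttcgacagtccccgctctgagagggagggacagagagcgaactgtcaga
EMX2, plus strand, chr10:117542496-117542795: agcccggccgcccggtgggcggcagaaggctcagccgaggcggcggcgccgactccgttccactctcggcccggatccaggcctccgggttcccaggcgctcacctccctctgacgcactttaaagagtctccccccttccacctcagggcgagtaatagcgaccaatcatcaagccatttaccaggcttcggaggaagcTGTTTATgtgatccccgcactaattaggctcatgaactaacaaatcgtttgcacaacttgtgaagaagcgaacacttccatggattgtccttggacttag

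The PAX8 promoter was covered over 249 of its 300 bases by a control peak of height 11, and the PAX2 promoter over 115 bases by a control peak of height 6. Neither holds any of the 4 motifs. The AATF promoter was covered over 300 bases by a TGF-β1 peak of height 10 and over 172 bases by a control peak of height 10, and it holds 3 matches to CGGAAG. In the POU3F3 promoter GTAAACA was found at position -6 from the start, and in the EMX2 promoter ATAAACA was found at position -50. Of the 13 promoter windows of these genes, 4 held GTAAACA or ATAAACA, beside 7.43% of all 35116 promoters of the table, and 2 of the 4 belong to alternative starts of GATA3. Taken singly, 3.42% of all promoters held GTAAACA, 4.24% ATAAACA, 7.71% TGANTCA and 19.5% CGGAAG. A match is only a run of letters and says nothing about binding, and a window without one may lie beside other sites. The median GC content was 62% over the 13 windows and 58.7% over the table.

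PAX8 had the highest peaks of the 8 genes. Its highest peak reached 25 in the TGF-β1 list and 33 in the control list, and it was the 1 gene of the 8 with a strong peak in either list. PAX2 followed with 14 in the TGF-β1 list and 16 in the control list, and HNF4G had 13 and 16. HNF4A and LHX1 each reached 10 in both lists. POU3F3 reached 9 in the TGF-β1 list and 14 in the control list, EMX2 9 and 7, and GATA3, the lowest, 7 and 6. The order below PAX8 rests on heights a few units apart in 1 library, with no replicate error to set it against, so neighbours in it cannot be told apart.

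**Figure D1:**
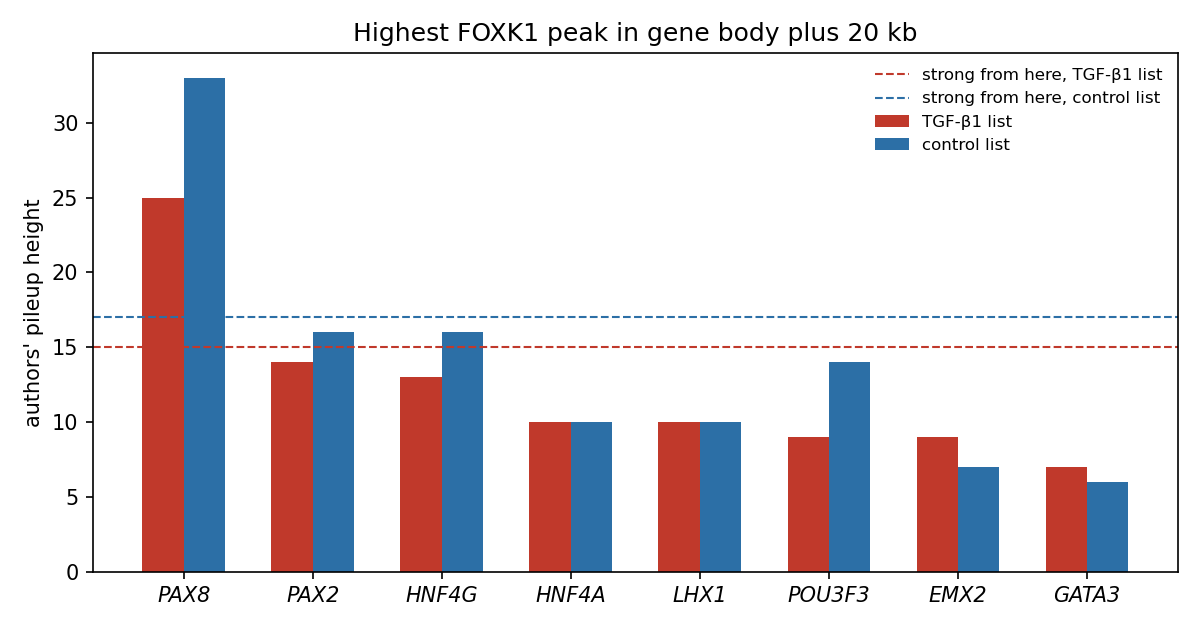
Highest FOXK1 peak (authors' pileup height, linear axis) in the gene body plus 20 kb of each of the 8 genes, in the TGF-β1 list (red) and the control list (blue), with dashed lines where strong peaks begin. Only the PAX8 bars, at 25 and 33, pass their lines at 15 and 17.

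A window peak of any height was found for 8 of 8 genes in each list, against 98.1% of all protein-coding genes in the TGF-β1 list and 98.0% in the control list, so presence of a peak carried no information about these genes. A peak of height 10 or more was found for 5 genes in the TGF-β1 list and 6 in the control list, beside 64.2% and 71.5% of all genes. Strong peaks were found for 1 of the 8 in the TGF-β1 list and 1 in the control list, beside 40.0% and 41.2% of all genes. The 1 gene was PAX8 in both lists, and 33.3% of all genes had a strong peak in both. The median of the highest peak over the 8 genes was 10 in the TGF-β1 list, beside 12 over all genes, and 12 in the control list, beside 14. With gene bodies only, the median of the 8 genes was 9.5 in the TGF-β1 list and 7 in the control list. The all-gene median for gene bodies only is not given here, so these medians cannot be called high or low. The share of strong genes lies below that of all genes, but the difference was not tested and 8 genes give little precision. Among all genes, a highest peak as high as that of PAX8 was found in 16.2% in the TGF-β1 list and 12.1% in the control list. One as high as that of GATA3 was found in 84.8% and 94.0%.

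**Figure D2:**
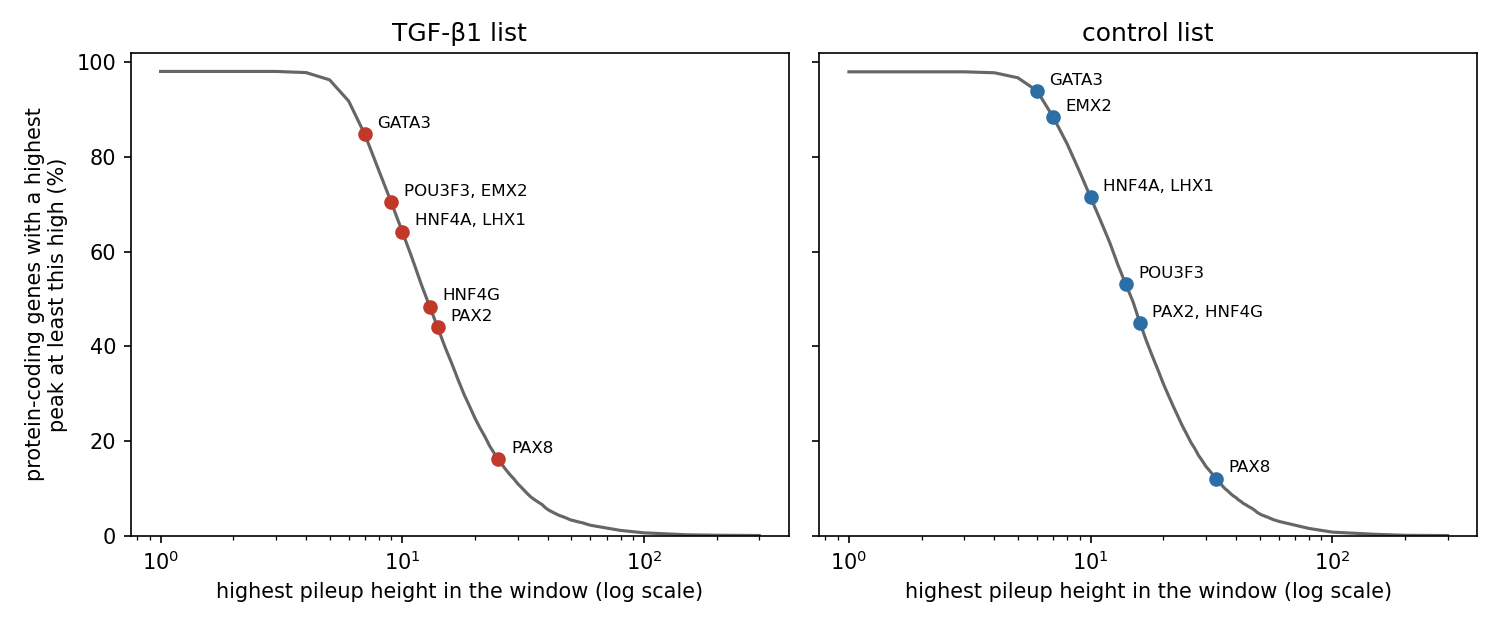
Share of all 20037 protein-coding genes (y axis, percent) whose highest peak in the gene body plus 20 kb is at least the height on the x axis (log scale), for the TGF-β1 list (left) and the control list (right), with the 8 genes marked. PAX8 lies where 16.2% and 12.1% of genes remain, and GATA3 where 84.8% and 94.0% remain.

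The PAX8 window, 102.925 kb long, also had the most peaks per 100 kb of the 8. It held 34 TGF-β1 peaks, or 33.0 per 100 kb (exact Poisson 95% interval 22.9 to 46.2, counting error only), and 28 control peaks, or 27.2 per 100 kb (18.1 to 39.3). LHX1 came next with 25.1 (13.0 to 43.8) and 20.9 (10.0 to 38.5) per 100 kb, and its intervals overlap those of PAX8. The median over all protein-coding genes was 17.6 per 100 kb in the TGF-β1 list and 16.0 in the control list. A density as high as that of PAX8 was found for 2.13% and 5.76% of genes. Of the TGF-β1 peaks of height 10 or more in all 8 windows, 7 of 14 lay in the PAX8 window, and of the control peaks 11 of 19. As many such peaks in 1 window were found for 3.36% of genes in the TGF-β1 list and 1.45% in the control list.

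The highest PAX8 site lay inside the gene near its far end, 60051 bp downstream of the start. There the TGF-β1 peak at chr2:113218213-113218870 had a height of 25, and the control peak at chr2:113217021-113218933 had a height of 33. The control peak, 1913 bp wide, also overlapped a second and lower TGF-β1 peak of height 7 (chr2:113216961-113217409). Further into the gene, a TGF-β1 peak of height 10 (chr2:113225871-113226478) and a control peak of height 20 (chr2:113225703-113226482) overlapped, 52443 bp from the start. This site was strong in the control list and not in the TGF-β1 list. The third site lay in the middle of the gene, where the antisense transcript PAX8-AS1 is also annotated. There a TGF-β1 peak of height 16 and 2046 bp width (chr2:113240082-113242127) overlapped a control peak of height 15 and 1619 bp width (chr2:113240336-113241954). With these heights it was strong in the TGF-β1 list, where strong peaks begin at 15, and 2 units short of strong in the control list. A narrower pair of heights 10 and 12 adjoined it, at chr2:113242454-113242711 in the TGF-β1 list and chr2:113242300-113242758 in the control list.

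Upstream of PAX8, a broad TGF-β1 peak of height 13 (chr2:113282078-113284024) lay 3157 bp before the start and overlapped a control peak of height 14 (chr2:113282548-113284076). A pair with heights of 9 and 13 lay 5544 bp before the start, and a pair with 6 and 7 lay 7994 bp before it. Beyond the far end of PAX8, a pair with 13 in the TGF-β1 list and 14 in the control list lay at an end of PSD4, the gene of an exchange factor for ARF GTPases. Both peaks of that pair overlapped PSD4, and they lay 6329 bp (TGF-β1) and 5719 bp (control) outside the PAX8 gene body. At the PAX8 start itself the lists differed. The control list had a peak of height 11 across it (chr2:113278794-113279120), with no overlapping TGF-β1 peak. The nearest TGF-β1 peak, of height 7 (chr2:113277400-113277958), began 963 bp inside the gene. In the 8 windows, 3 of 14 TGF-β1 and 5 of 19 control peaks of height 10 or more had no overlap in the other list. The control peak at the PAX8 start is among these 5. Over all peaks of such height, 84.7% in the TGF-β1 list and 82.8% in the control list overlapped the other list.

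**Figure D3:**
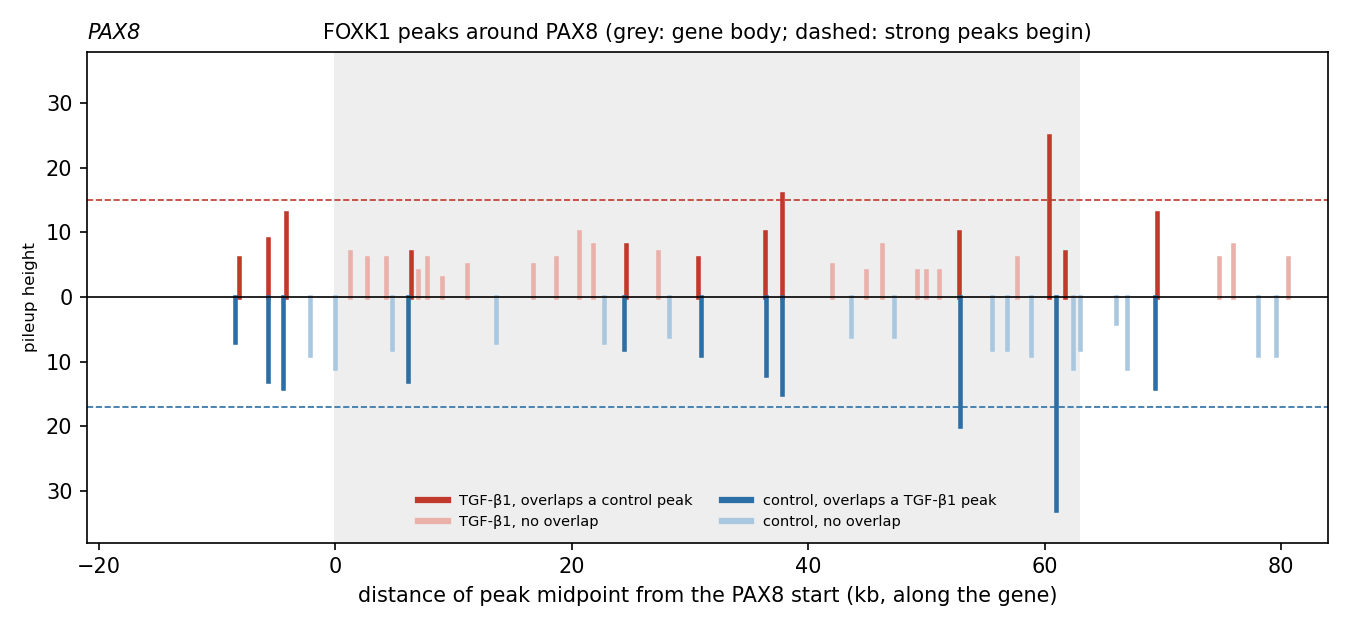
FOXK1 peaks around PAX8 by distance of the peak midpoint from the start (x axis, kb along the gene), with the authors' pileup height upward for the TGF-β1 list and downward for the control list. Full colours mark peaks that overlap a peak of the other list, the grey band is the gene body, and the pair with heights 25 and 33 stands near the far end of the gene.

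PAX2, on chromosome 10, had its highest site upstream. A TGF-β1 peak of height 14 (chr10:100729005-100729458) lay 5938 bp before the first listed start and overlapped a control peak of height 16 (chr10:100729075-100729396), each 1 unit short of strong in its list. A second overlapping pair with heights of 7 and 10 lay 3882 bp before the start. The third site was inside the gene, where a TGF-β1 peak of height 12 (chr10:100739255-100739878), 3859 bp after the start, overlapped control peaks of heights 7 and 6. Within 1 kb of either listed start the TGF-β1 list had no peak, and the control list had the peak of height 6 over the second start. The window of 134.549 kb held 16 TGF-β1 peaks and 20 control peaks, and the other 13 and 16 had no counterpart and heights of 8 or less. Both paired-box genes thus had overlapping sites several kb upstream of a start, and of the pair PAX8 had strong sites within the gene. Overlapping sites outside the gene body were not particular to them, since HNF4G, LHX1 and POU3F3 had such sites too.

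HNF4G, on chromosome 8, had its highest site at the lower-coordinate end of the gene. There a TGF-β1 peak of height 13 (chr8:75406958-75407912) overlapped a control peak of height 16 (chr8:75406531-75407697), and both spanned the annotated end. A control peak of height 11 (chr8:75408575-75409298) followed 926 bp into the gene without a TGF-β1 counterpart. A pair with heights of 10 and 9 lay 5240 bp outside this end. HNF4G had the longest window, 199.186 kb, with 37 TGF-β1 and 34 control peaks. That was 18.6 per 100 kb (13.1 to 25.6) and 17.1 per 100 kb (11.8 to 23.9), close to the median over all genes. Of these peaks, 6 in each list overlapped the other list. A TGF-β1 peak of height 12 deep in the gene (chr8:75484575-75484966) did not overlap any control peak.

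HNF4A, on chromosome 20, had no overlapping pair of peaks. None of its 17 TGF-β1 peaks overlapped any of its 11 control peaks, and none of these 28 exceeded a height of 10. The highest TGF-β1 peak, of height 10 (chr20:44396214-44396544), lay 4695 bp before the second listed start and within 1 kb of the antisense gene HNF4A-AS1. The highest control peak, of height 10 (chr20:44448740-44449271), lay beyond the far end at the noncoding gene LINC01430, with another of height 9 beside it. Within 1 kb of a listed HNF4A start the TGF-β1 list had a peak of height 6, 596 bp after the second start, and the control list had none. By density HNF4A had 14.3 TGF-β1 peaks per 100 kb (8.33 to 22.9) and 9.25 control peaks per 100 kb (4.62 to 16.6). Both nuclear receptor genes were thus without a strong peak, and HNF4G alone of the pair had a peak at an end in both lists.

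LHX1, on chromosome 17, is a short gene of 7.828 kb whose lower-coordinate end is next to the divergent noncoding gene LHX1-DT. At this end a TGF-β1 peak of height 9 (chr17:36935920-36936973) overlapped a control peak of height 9 (chr17:36935673-36936626). Just inside the gene a TGF-β1 peak of height 5 overlapped a broad control peak of height 10 and 1886 bp width (chr17:36937304-36939189). The highest TGF-β1 peak of the LHX1 window, of height 10 (chr17:36948190-36950338), was at the start of AATF, as was a control peak of height 10 (chr17:36948832-36949600). Without peaks near the ends of other protein-coding genes, the highest LHX1 peak was 9 in the TGF-β1 list and stayed at 10 in the control list. LHX1 had the largest share of overlapping peaks of the 8 genes. It was 6 of 12 in the TGF-β1 list and 6 of 10 in the control list, all at heights of 10 or less. The density was 25.1 TGF-β1 peaks per 100 kb (13.0 to 43.8) and 20.9 control peaks per 100 kb (10.0 to 38.5).

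POU3F3, on chromosome 2, had a TGF-β1 peak of height 8 (chr2:104849624-104850466) and an overlapping control peak of height 14 (chr2:104849592-104850258) 3649 bp before its start, within the neighbouring noncoding gene PANTR1. Its highest TGF-β1 peak, of height 9, lay 19881 bp before the start and did not overlap any control peak. Close to the start the TGF-β1 list had a peak of height 6 (chr2:104854344-104854976), 229 bp after it, and the control list had none within 1 kb. The promoter printed above with GTAAACA at -6 ends before that peak. A control peak of height 9 (chr2:104852448-104852766) lay 1349 bp before the listed start and 510 bp from the annotated gene body. Further overlapping pairs, with heights of 6 and 6, 5 and 6, and 5 and 5, lay inside the gene and just past its far end. The window held 16 TGF-β1 peaks and 19 control peaks.

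EMX2 and GATA3, both on chromosome 10, had the fewest peaks and no overlapping pair. EMX2 had 3 TGF-β1 peaks and 4 control peaks. The highest TGF-β1 peak, of height 9 (chr10:117544572-117545070), lay 1826 bp after the EMX2 start at an end of the antisense gene EMX2OS. All 4 control peaks were upstream of the gene, with heights of 5 to 7, so the control list had no peak in the EMX2 gene body. GATA3 had 6 peaks in each list, with heights of 4 to 7 in the TGF-β1 list and 3 to 6 in the control list. Its TGF-β1 peak at chr10:8069664-8070341 lay close to the control peak at chr10:8069178-8069436 without overlap. Of its 6 listed starts, the TGF-β1 list had a peak of height 6 (chr10:8050670-8050942) and another of height 4 within 1 kb of some, and the control list had none. The density around GATA3 was 8.59 per 100 kb in both lists (3.15 to 18.7). A density as high was found for 89.9% of all genes in the TGF-β1 list and 89.1% in the control list.

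**Figure D4:**
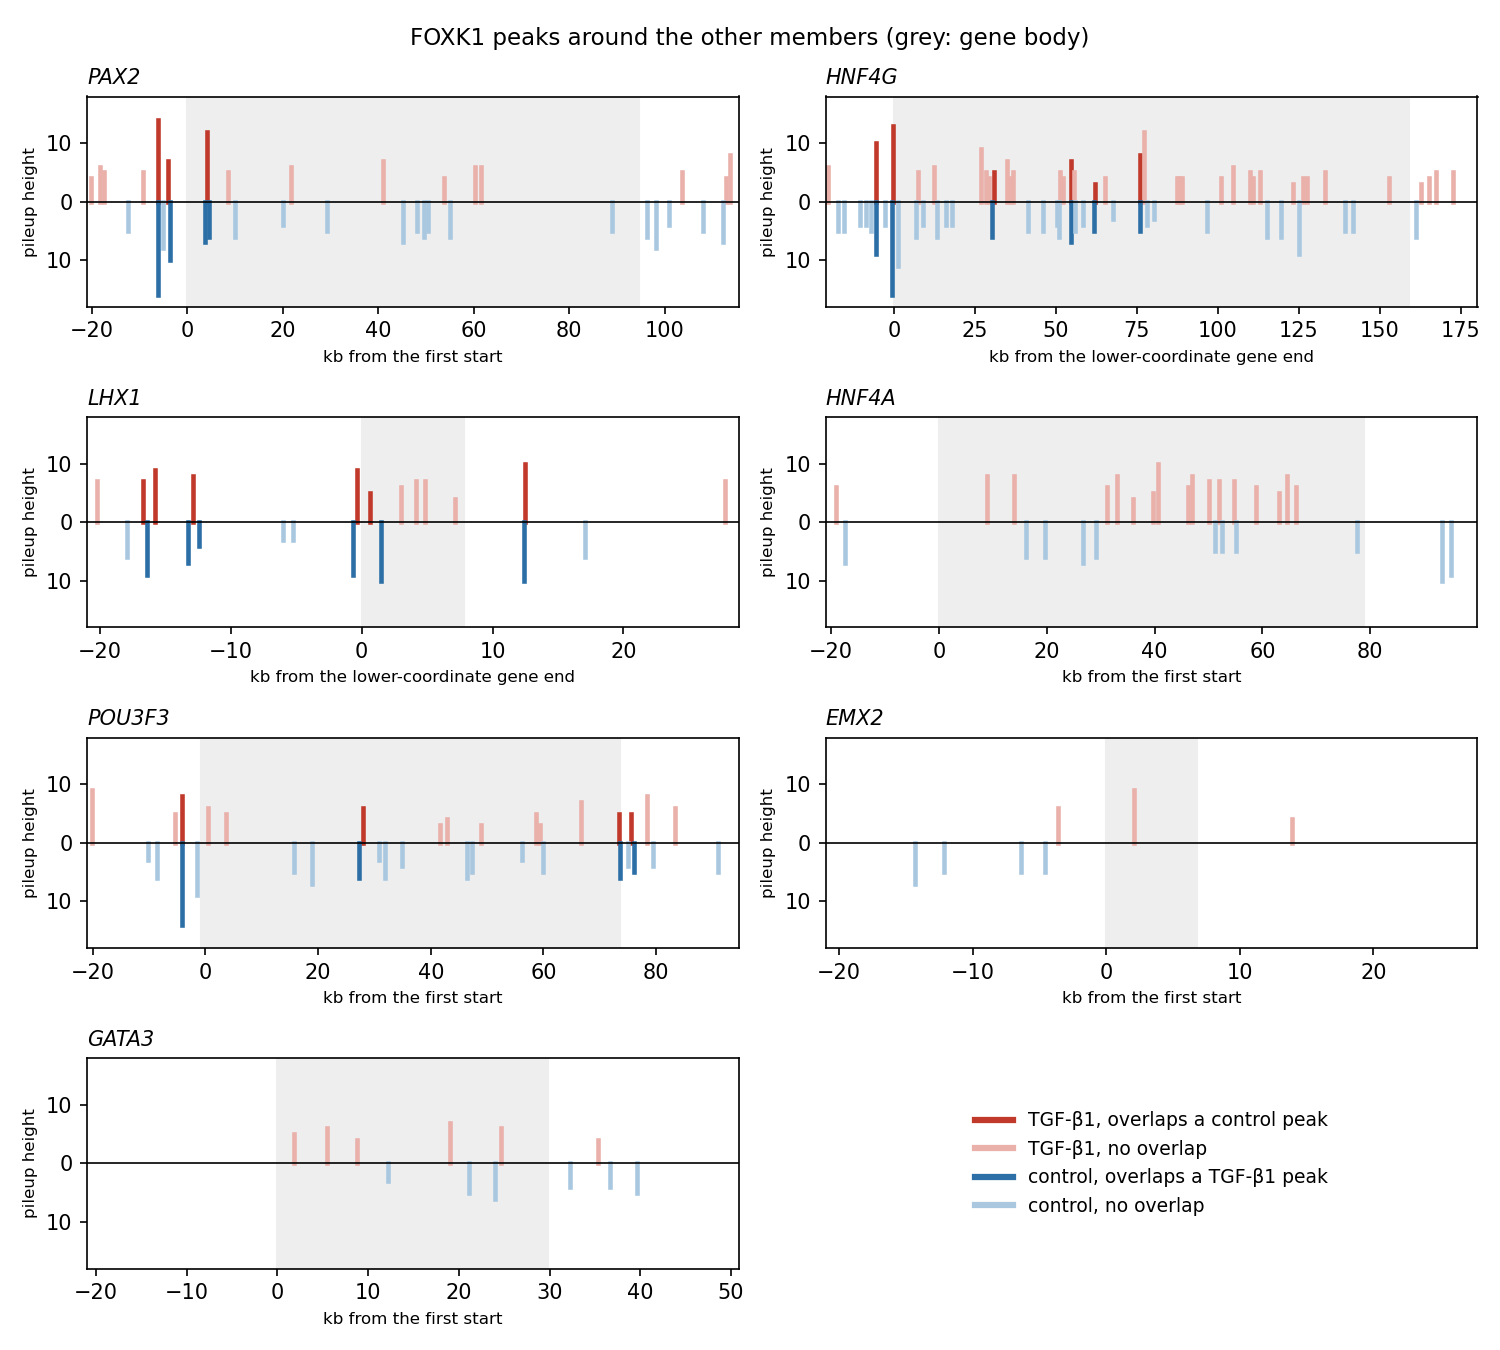
FOXK1 peaks around the other 7 genes, drawn as for PAX8: distance of the peak midpoint in kb on the x axis, pileup height upward for the TGF-β1 list and downward for the control list, gene body in grey. Overlapping pairs (full colours) stand before the PAX2 start, at the lower-coordinate ends of HNF4G and LHX1 and before the POU3F3 start, and HNF4A, EMX2 and GATA3 have none.

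A peak within 1 kb of a listed start was found for 6 of 8 genes in the TGF-β1 list and 4 of 8 in the control list, beside 69.4% and 70.7% of all genes. For LHX1 and HNF4G, which had no listed start, either annotated end counted. In the TGF-β1 list these were PAX8, HNF4A, HNF4G, LHX1, POU3F3 and GATA3, with heights of 6 to 13. In the control list they were PAX8, PAX2, HNF4G and LHX1, with heights of 6 to 16. The highest, at the end of HNF4G, was 2 units short of strong in the TGF-β1 list and 1 unit short in the control list. None of these start peaks was strong, beside 15.6% of all genes in the TGF-β1 list and 17.0% in the control list with a strong one.

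Across all 8 windows, 834.551 kb in total, there were 141 TGF-β1 peaks and 132 control peaks. That was 16.9 per 100 kb (14.2 to 19.9) in the TGF-β1 list and 15.8 per 100 kb (13.2 to 18.8) in the control list. Without PAX8 the densities were 14.6 and 14.2 per 100 kb. Peaks of height 3 to 5 made up 43.3% of the TGF-β1 and 43.2% of the control peaks of these genes, beside 60.5% and 50.6% of the peaks in the windows of all protein-coding genes. Peaks of height 10 or more made up 9.93% and 14.4%, beside 8.12% and 11.7%. By place, gene bodies of the 8 genes held 19.6 TGF-β1 midpoints per 100 kb (15.99 to 23.9), beside 16.7 for all genes, and 14.8 control midpoints (11.6 to 18.5), beside 14.5. Within 5 kb of the gene the densities were 13.8 (6.86 to 24.6) in the TGF-β1 list, beside 19.9, and 25.0 (15.3 to 38.6) in the control list, beside 18.6. At 5 to 10 kb they were 15 (7.75 to 26.2), beside 16.7, and 22.5 (13.3 to 35.6), beside 15.9. In the 10 to 20 kb from the gene the densities were 8.75 (4.78 to 14.7), beside 16.7, and 11.3 (6.67 to 17.8), beside 15.7. Of 8 such intervals, for gene bodies and 3 distances in each list, the TGF-β1 interval at 10 to 20 kb was the 1 that did not hold the all-gene density.

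Few of the peaks recurred. Of the TGF-β1 peaks 31 of 141, or 22.0% (exact binomial 95% interval 15.5 to 29.7, counting error only), overlapped a control peak, and of the control ones 31 of 132, or 23.5% (16.5 to 31.6), overlapped a TGF-β1 peak. The shares over peaks in the windows of all protein-coding genes were 26.4% and 29.8%, and over all peaks of the lists 22.9% and 26.1%, all within these intervals. Overlap went with height. It was 8.20% for TGF-β1 peaks of height 3 to 5, 22.7% for 6 to 9 and 78.6% for 10 or more (11 of 14). In the control list it was 7.02%, 23.2% and 73.7% (14 of 19). Over all peaks of the TGF-β1 list the shares in these 3 classes were 13.2%, 30.2% and 84.7%. Over all peaks of the control list they were 14.0%, 29.4% and 82.8%. In every class the share of the 8 genes was the lower one, and the all-peak share lay within its exact binomial 95% interval. The difference was not tested. Overlapping peaks were wider, with a median of 454 bp against 356 bp for the others in the TGF-β1 list and 667 bp against 313 bp in the control list. Overlap of 1 bp or more is not independent of width, and the same contrast over all peaks is not given here.

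**Figure D5:**
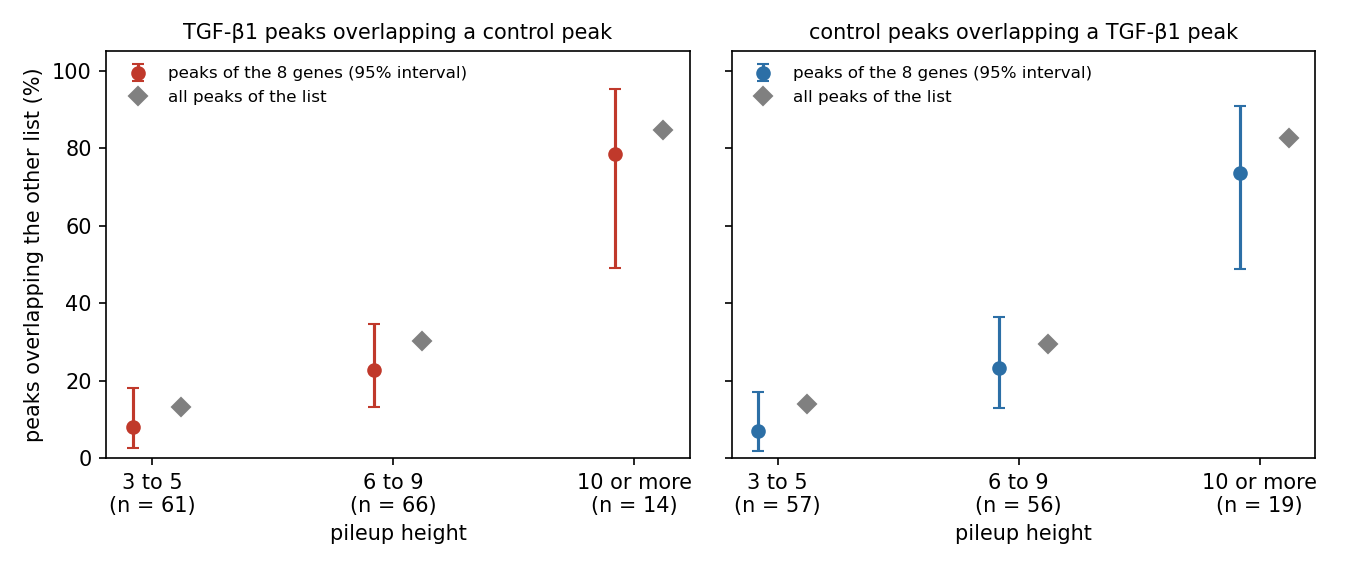
Share of peaks that overlap a peak of the other list (y axis, percent) by pileup height, for the peaks in the windows of the 8 genes (circles, with exact binomial 95% intervals for counting error) and all peaks of the list (diamonds). At heights of 10 or more the 8 genes had 78.6% in the TGF-β1 list and 73.7% in the control list, beside 84.7% and 82.8% of all peaks.

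By gene, overlapping pairs were found in 5 of the 8 windows, beside 89.8% of all genes. There were 33 such pairs: 12 at PAX8, 7 at LHX1, 6 at HNF4G and 4 each at PAX2 and POU3F3. Both peaks of a pair reached a height of 10 at 4 genes, PAX8 with 6 pairs and PAX2, HNF4G and LHX1 with 1 each, beside 56.8% of all genes. At LHX1 that pair was the one at the AATF start, and the PAX8 pairs include the one at an end of PSD4.

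Other gene lists of the kidney, taken with the same windows, had strong peaks more often by count. The share was 12.5% in each list for the 8 genes described here. Of 30 other kidney transcription factors, 13 (43.3%) had a strong peak in the TGF-β1 list and 12 (40.0%) in the control list, near the 40.0% and 41.2% of all genes. Among the highest were TFAP2A, an AP-2 factor, with 40 in the TGF-β1 list and 36 in the control list, ESRRG, an orphan nuclear receptor, with 34 and 36, and NR1H4, the bile acid receptor, with 27 and 41. Tied with NR1H4 at 27 in the TGF-β1 list were MECOM and SIM1, each with 29 in the control list, and LMX1B with 22. Of 22 proximal tubule transporters and receptors, 11 (50%) and 8 (36.4%) had a strong peak, led by the cystine and dibasic amino acid transporter gene SLC3A1 with 53 and 56, the endocytic receptor gene CUBN with 31 and 37, and the carboxylate transporter gene SLC13A3 with 26 and 27. The organic cation transporter gene SLC22A2 followed with 21 and 33, tied in the TGF-β1 list with ABCC2, an organic anion efflux transporter gene, with 21 and 13. Of 17 injury and repair genes, 7 (41.2%) had a strong peak in each list, led by ATF3, a stress-induced bZIP factor, with 70 and 38, and GDF15, a stress cytokine, with 47 and 45. HAVCR1, the injury marker KIM-1, had 36 and 42, and KLF6, a zinc finger factor, had 36 and 25. The median of the highest peak was 10 and 12 for the 8 genes described here, 13 and 12.5 for the other transcription factors, 15 and 13 for the transporters and 12 and 14 for the injury genes. The differences between these lists were not tested, and the lists were not matched for gene length.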

How the data were processed

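Each deposited file is a peak list of 1 condition with a chromosome, start, end and signal per peak. The signal was used as the authors' pileup height, in whole numbers and not scaled between lists, as deposited. The files name no columns, and this reading rests on the values and on MACS2. The submitters' processing notes name hg38, MACS2 (version 2.1.1.20160309) and bcl2fastq (version 2.17). The peak names set 1 FOXK1 library against 1 input per condition. Not given in the sources used here are the aligner, read filters, peak threshold and depth. Starts were read as counting from 0, which may shift printed starts by 1 bp.

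Peaks on assembled chromosomes were joined to RefSeq genes in Python 3.11.15 (pandas 2.3.3, numpy 2.4.6, scipy 1.17.1 for intervals, matplotlib 3.10.9 for plots). Overlap meant 1 bp or more. Start sites and strand came from the RefSeq promoter table. For 4194 protein-coding genes without one, either gene end was used. Gene assignment and overlap were checked on simulated peaks. No test was made, since each condition had 1 library. All 8 genes are named with their strong, highest and start peaks, and of each other list the 4 genes highest in the TGF-β1 list with any tied at the fourth place, of which 1 is not reported here. The members and lists were chosen with earlier results of these data known. Alternative windows, height minimums, overlap rules and start definitions were tried.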

Additional observations from a re-analysis of the deposited data

How the results depend on the processing

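Counts of the 8 genes with any peak were the same or within 1.5 times under every window tried and at heights of 5 or more, and the count was 5 in the TGF-β1 list at heights of 10 or more. The count with a strong peak was 1 in each list. It became 3 in the TGF-β1 list and 4 in the control list when strong peaks were taken down to the 20000th, 2 in the control list with a window of 50 kb, where HNF4A reached 17, and 3 in the control list with a minimum of 15 in both lists, chosen after seeing the data. The number of peaks was 14 in the TGF-β1 list and 19 in the control list at heights of 10 or more, and 79 in the control list in gene bodies only. The share of overlapping peaks was 32.6% and 34.8% within 500 bp, and 78.6% and 73.7% at heights of 10 or more. Without PAX8, chosen after seeing the data, it was 17.8% and 19.2%. The median of the highest control peak was 7 in gene bodies only, against 12. The cause of these changes was not tested. Counts of start peaks stayed within 1.5 times of 6 and 4, between 4 and 8 in the TGF-β1 list and between 4 and 5 in the control list. No paired analysis was possible because each condition had 1 FOXK1 library. Depth is unknown, so absence of a low peak from a list does not show absence of binding.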

Other observations

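The 8 windows held 16 listed starts of other genes. TGF-β1 peaks overlapped 2 of their promoter windows and control peaks 3. The share over all listed promoters is again not given, so these counts cannot be called high or low either. The AATF promoter was in both lists, with a height of 10 in each. The promoter of R3HDML, in the HNF4A window, had a TGF-β1 peak of height 6 only. A promoter of the antisense gene PAX8-AS1 had a control peak of height 6 only, and that of LINC01430, which holds ATAAACA at position -133, had a control peak of height 9 only. All of these but the AATF pair fall in the class of heights 6 to 9, where most peaks had no counterpart in the other list. Overlap rose with height, and the share at a height of 9 alone is not given.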
